A study of Homo sapiens with 24 samples.

Results

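The genes described here are 9 genes that mark and regulate lung epithelium, measured in the lung adenocarcinoma cell lines A549 and H1975. They were chosen by name: the factors NKX2-1, FOXA1, FOXA2, GATA6 and HNF4A, and the surfactant and alveolar genes SFTPB, SFTPD, NAPSA and SLC34A2. They are 9 of the 25992 gene names on the array. All probes carrying one of these names were taken, which gave 12 of the 34127 probes. Of these, 10 were bright enough for the tests, out of 23827 probes tested in all. Both lines received Pirfenidone, a drug given for lung fibrosis, at 0.75 mg/ml, and RNA was taken after 6 h or 24 h. Controls received PBS instead, in equal volume. The 8 groups held 3 samples each, with 1 one-color Agilent array per sample. Nothing in the labels states that the 3 samples of a group came from separate cultures, so p-values measure the spread between these samples, which may be technical. Each line is an established tumor line without the other cell types of the lung, and both stand for 1 tumor each.

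NKX2-1 is a homeobox factor that specifies lung and thyroid, keeps alveolar type 2 cells in their identity and serves as a diagnostic marker of lung adenocarcinoma. FOXA1 and FOXA2 are forkhead factors that open chromatin in endoderm-derived organs, and GATA6 is a zinc finger factor of early endoderm and lung epithelium. HNF4A is a nuclear receptor of liver and gut epithelium. Among the products of alveolar type 2 cells, SFTPB encodes surfactant protein B, which spreads the surfactant film, and SFTPD encodes surfactant protein D, a collectin that binds microbes. NAPSA encodes the protease napsin A, which processes surfactant protein precursors, and SLC34A2 encodes their phosphate transporter.

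The probes that carried the main results are given by the first 30 of their 60 bases, 5′ to 3′, because each value below is the brightness of these oligonucleotides and 2 of the genes shown were read by 2 different ones. NKX2-1 was read on hg19 at chr14:36985718-36985777, FOXA2 at chr20:22562164-22562223 and the FOXA1 probes at chr14:38059546-38059605 and chr14:38064461-38064520, all on the minus strand. The SFTPB probes lay on the same strand at chr2:85885413-85885472 and chr2:85885985-85886044. An annotation of hg19 was not used here, and no exon is named for that reason.
NKX2-1 (A_24_P61490): cagcccttcacattttttatgggcattgac
FOXA2 (A_24_P365515): tccggtttccactactgtgtagactcctgc
FOXA1 (A_23_P37127): attacaatgttggaggagagataagttata
FOXA1, second probe (A_33_P3332997): agaggacgaggaggtgggcactcaagcgac
SFTPB (A_33_P3275873): tctactcactgggatgaggttaggtcatga
SFTPB, second probe (A_33_P3275878): cccattcctgtgtaatacaatgtctgcacc

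Values are log2 signals relative to the 75th percentile of the same array, so 0 is that percentile and a difference of 1 is 2-fold. They compare a probe between arrays, not 1 gene with another. A probe was called where limma's p, adjusted by Benjamini and Hochberg over all probes tested, was 0.05 or less and the log2 difference was at least 1 in size. An array had 62.7% to 69.5% of its probes well above background, and no probe was saturated. File names carry a date, and the arrays fall into 4 date groups by it, numbered 1 to 4. A549 arrays lie in groups 1, 2 and 3 and H1975 arrays in groups 1, 3 and 4, and each group of 3 samples holds 1 array of each date. What the date records was not stated. The arrays lay on 7 slides, and no slide held arrays of both lines. Differences between the lines therefore cannot be told apart from differences between slides. The epithelial markers EPCAM, CDH1, KRT7, KRT8, KRT18 and KRT19 were well above background throughout, on 12 of 12 arrays in each line.

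The lines differed in the levels of their lineage factors. FOXA1 by its main probe, FOXA2 and GATA6 were well above background on 12 of 12 arrays in each line. NKX2-1 was well above background in H1975 alone, FOXA1, FOXA2 and HNF4A were lower in H1975, and GATA6 was higher there. With PBS at 6 h, 8 of the 10 probes tested were called between the lines, 4 higher and 4 lower in H1975, where 32.4% of all probes tested were called, 4071 probes higher and 3638 lower. At 24 h it was 7 of 10, 3 higher and 4 lower, against 32.9% of all probes, 4284 higher and 3560 lower. In these bulk measurements, fewer cells that express a gene and less RNA per cell cannot be told apart. The calls stood for 7 of the 9 genes at either time. NKX2-1, HNF4A and both SFTPB probes passed the brightness filter in a single line, so their line calls are not independent of that filter. The median difference over the 10 probes was 0.65 at 6 h and 0.51 at 24 h, and over all probes 0.06 and 0.08.

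**Figure D1:**
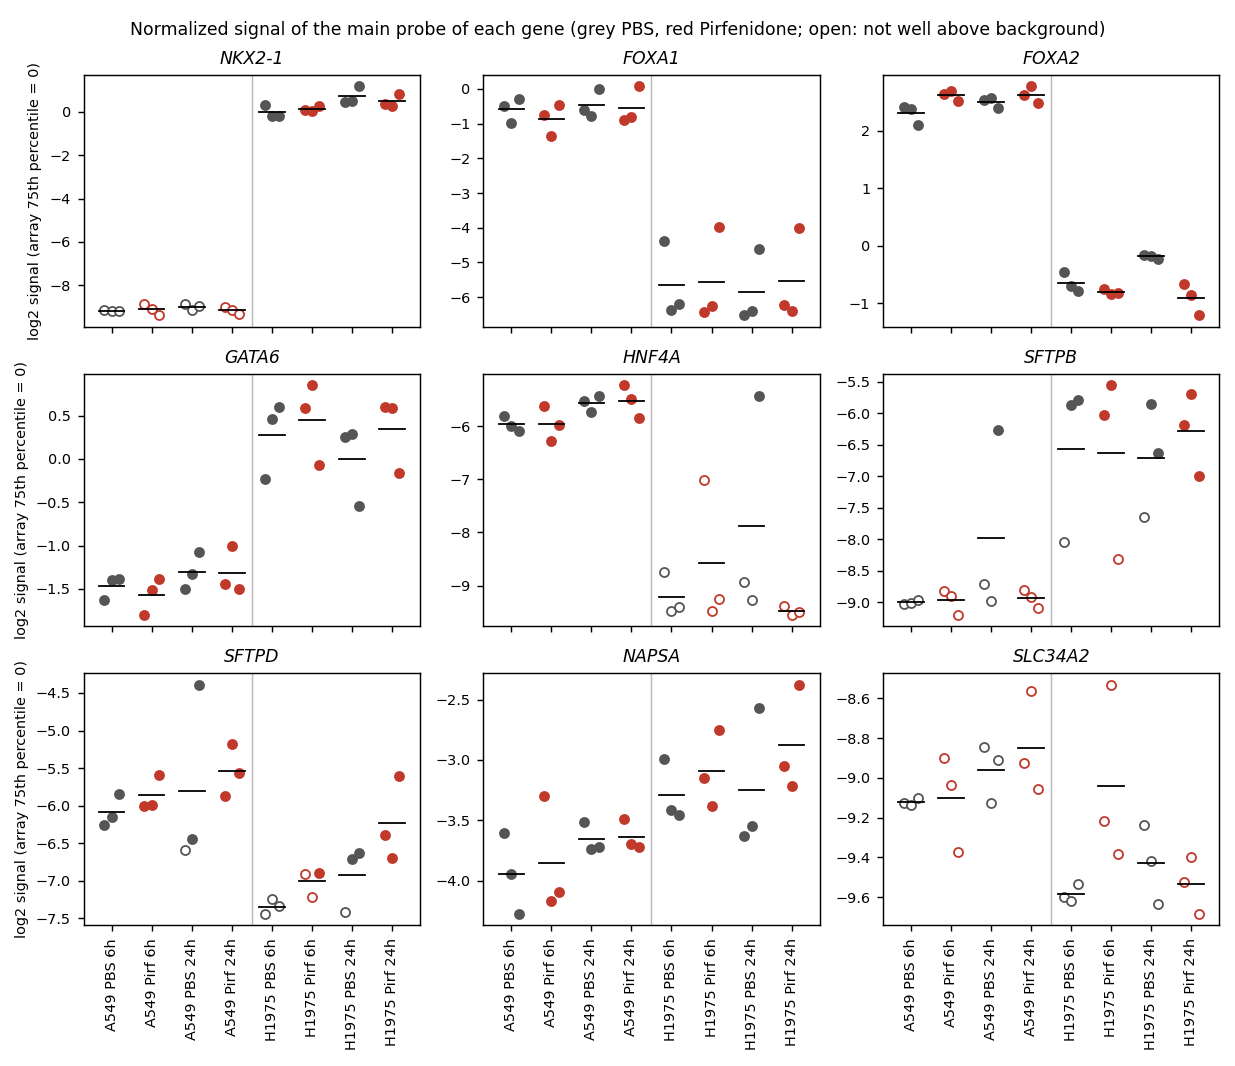
Log2 signal of the main probe of each gene (the probe with the highest mean over the 24 arrays) on each array, with 0 at the 75th percentile of the array, by line, treatment and time. Each point is 1 array, bars are means of 3, open points were not well above background, and vertical scales differ between panels. NKX2-1 was well above background on 12 of 12 H1975 arrays and 0 of 12 A549 arrays, and SLC34A2 on none.

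NKX2-1 gave the widest gap. In A549 its probe was not well above background on any of the 12 arrays, with signals from -9.37 to -8.84. In H1975 it was well above background on all 12, with a lowest value of -0.22, a median of 0.28 and a highest of 1.18. NKX2-1 was therefore at least 114-fold higher in H1975 than in A549 with PBS at 6 h and at least 172-fold higher at 24 h, taking the dimmest signal well above background on each A549 array as its ceiling (limma adjusted p = 4.2e-18 and 1.73e-18). The measured log2 differences were 9.13 and 9.68, and with normexp background correction 5.49 and 6.17, below those bounds.

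FOXA1 ran the other way. With PBS at 6 h its main probe read -0.49, -0.97 and -0.30 in A549 and -4.37, -6.37 and -6.18 in H1975. It was 33.2-fold lower in H1975 at 6 h (log2 difference -5.05, SE 0.70, limma adjusted p = 4.75e-06) and 41.5-fold lower at 24 h (-5.37, SE 0.70, adjusted p = 2.18e-06). No array of one line reached the range of the other, as was so for 66.3% of all probes at 6 h and 63.6% at 24 h. The H1975 array of date group 1 stood above the other 2 at each time. Within the dates that both lines share, the difference at 6 h was -4.07 in date group 1 and -5.40 in group 3, and at 24 h it was -4.59 and -5.74. With normexp background correction it was -4.01 at 6 h and -4.21 at 24 h. The second FOXA1 probe was not well above background on any array and was not tested.

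FOXA2, the second forkhead factor, was bright in both lines. Its PBS values at 6 h were 2.42, 2.39 and 2.11 in A549 and -0.45, -0.71 and -0.78 in H1975, tight in each line and far apart. The difference was -2.96 (SE 0.13, 7.76-fold lower in H1975, limma adjusted p = 3.05e-13), and -2.69 at 24 h (SE 0.13, adjusted p = 1.36e-12).

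GATA6, on chromosome 18 on the plus strand, was higher in H1975. At 6 h with PBS it read -1.62, -1.40 and -1.38 in A549 and -0.23, 0.47 and 0.60 in H1975. The lines did not overlap, as was so for 66.3% of all probes tested. GATA6 was 3.36-fold higher in H1975 at 6 h (log2 difference 1.75, SE 0.28, limma adjusted p = 2.44e-05) and 2.47-fold higher at 24 h (1.30, SE 0.28, adjusted p = 5.17e-04). Within dates it ranged from 0.53, in group 1 at 24 h, to 1.86, in group 3 at 6 h.

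HNF4A was dim but well above background on all 12 A549 arrays, where it ranged from -6.27 to -5.23. In H1975 it was well above background on 1 of 12 arrays, the third PBS sample at 24 h, at -5.44. The other 11 H1975 arrays lay from -9.54 to -7.01. With PBS at 6 h HNF4A was at least 2.72-fold lower in H1975 (measured log2 difference -3.25, limma adjusted p = 5.77e-04). Over the alternatives the difference at 6 h shrank to as little as -1.03, smaller in size than that bound. At 24 h the difference was -2.31 (SE 0.70, adjusted p = 0.00828), and -3.54 without that 1 array. That array is of date group 1, where the lines differed by -0.01 at 24 h, against -3.19 in group 3.

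**Figure D2:**
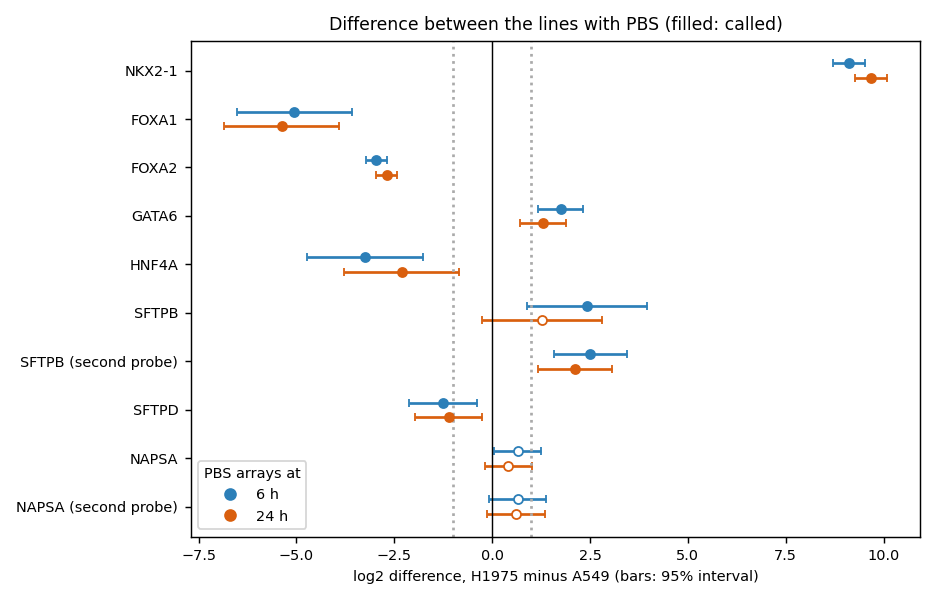
Log2 difference with PBS, H1975 minus A549, for the 10 probes tested, at 6 h (blue) and 24 h (orange). Points are limma estimates, bars are 95% intervals, filled points were called and dotted lines mark a 2-fold difference. NKX2-1 lies at 9.13 and 9.68 and FOXA1 at -5.05 and -5.37, while both NAPSA probes have open points at both times. NKX2-1, SFTPB, SFTPD and HNF4A are drawn at their measured differences, which signals at background set in part.

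The surfactant genes were dim in both lines, and they did not follow one line. SFTPB was well above background on 9 of 12 H1975 arrays by either probe, and in A549 on 1 array by its main probe and on none by the second. Its probes entered the tests only through H1975 with Pirfenidone at 24 h, where all 3 arrays were well above background. With PBS at 6 h the main probe read -9.02, -9.01 and -8.96 in A549, all at background, and -8.05, -5.87 and -5.80 in H1975, where the first was not well above background. SFTPB was at least 1.23-fold higher in H1975 by its main probe (measured log2 difference 2.43, SE 0.73, limma adjusted p = 0.00784) and at least 1.13-fold by the second (2.505, SE 0.45, adjusted p = 8.43e-05). Over the alternatives the difference of the main probe at 6 h shrank to as little as 0.28, just below its bound. At 24 h the probes parted. By the second, SFTPB was called (measured difference 2.12, SE 0.45, limma adjusted p = 4.53e-04). By the main one it was not (1.27, SE 0.73, limma adjusted p = 0.143). No fold could be bounded for the second probe, which was not well above background on any A549 array. Its H1975 mean of -6.91 lay below the mean of the dimmest signals well above background on those A549 arrays. The measured difference of that probe thus rests in part on signals at background.

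The 24 h value turned on 1 array. In the third A549 sample with PBS at 24 h the main SFTPB probe read -6.27, while the other 11 A549 arrays lay at -8.71 or below, and the second probe read -8.99 there, within its range on the other A549 arrays. Without that array the main probe was called at 24 h too (2.13, adjusted p = 0.0153). Over alternatives that kept this array its adjusted p ran from 0.0135, with both probes averaged, to 1.0.

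The same A549 array set the value of SFTPD. Its probe read -6.59, -6.44 and -4.39 in the 3 A549 samples with PBS at 24 h, and -7.41, -6.71 and -6.63 in H1975. SFTPD was 2.16-fold lower in H1975 (log2 difference -1.11, SE 0.41, limma adjusted p = 0.0262), and without the third A549 sample the difference was -0.40 (adjusted p = 0.236). At 6 h, where no A549 array stood out, it was at least 2.39-fold lower in H1975 (adjusted p = 0.0131). Over the alternatives the log2 difference at 6 h shrank to as little as -0.64, smaller in size than that bound. The third A549 sample with PBS at 24 h lay at least 1 log2 unit above every other A549 array in 82 of the probes tested (0.344%).

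NAPSA, by either probe, was well above background on 12 of 12 arrays in each line. With PBS at 6 h its main probe read -3.61, -3.94 and -4.27 in A549 and -2.99, -3.41 and -3.46 in H1975. H1975 stood 0.66 higher (95% interval 0.05 to 1.26, limma adjusted p = 0.0579) at 6 h and 0.41 higher (-0.20 to 1.01, adjusted p = 0.235) at 24 h, and the second probe gave 0.65 and 0.60, so neither probe was called. SLC34A2 was not well above background on any of the 24 arrays, with signals from -9.68 to -8.53, and was not tested.

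The promoters of NKX2-1 and SFTPB are shown because NKX2-1 has a neighbor with the same pattern over the arrays, and SFTPB is a surfactant gene that was called higher in H1975 at 6 h. RefSeq sequences on GRCh38.p14 were used, 250 bases before the start, 5′ to 3′ on the minus strand. 8 of the 9 genes had at least 1 window in the table, and FOXA2 had none. The windows were searched on both strands for GCNCTNNAG, a pattern known from NKX2-1 sites of surfactant genes, for the forkhead pattern TGTTTAC and its variants, named here as TGTTTGT and also as TGTTTGC, for the GATA pattern AGATAA and for the HNF4 pattern CAAAGTCCA. Capitals mark the matches, and overlapping matches run together.
NKX2-1 and SFTA3, shared start, chr14:36519557-36519806: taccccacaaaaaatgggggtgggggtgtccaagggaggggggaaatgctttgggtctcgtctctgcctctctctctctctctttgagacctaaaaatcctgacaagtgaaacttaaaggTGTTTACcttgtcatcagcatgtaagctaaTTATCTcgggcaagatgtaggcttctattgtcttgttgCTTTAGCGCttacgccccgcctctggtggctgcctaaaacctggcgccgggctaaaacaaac
SFTPB, second start, chr2:85668200-85668449: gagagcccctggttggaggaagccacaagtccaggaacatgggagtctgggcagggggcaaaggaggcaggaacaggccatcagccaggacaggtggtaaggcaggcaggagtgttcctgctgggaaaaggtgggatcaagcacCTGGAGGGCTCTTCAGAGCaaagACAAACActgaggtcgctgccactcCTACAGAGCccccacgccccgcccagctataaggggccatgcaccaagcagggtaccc
The shared window held GCNCTNNAG at -62 to -54, TGTTTAC at -130 to -124 and AGATAA at -100 to -95, counted from the start. The SFTPB window held GCNCTNNAG 4 times between -106 and -50, 3 of them overlapping, and TGTTTGT at -83 to -77. The window of the other SFTPB start held GCNCTNNAG at -55 to -47. The pattern also lay in windows of FOXA1 (-49 to -41), which was lower in H1975, and GATA6 (-180 to -172). It was in no window of SFTPD, NAPSA, SLC34A2 or HNF4A. Forkhead patterns also lay in windows of FOXA1, GATA6, HNF4A, SLC34A2 and the other NKX2-1 start, and AGATAA in a window of HNF4A. Of 34943 windows in the table, each 300 bases long, 17.7% held the pattern GCNCTNNAG. The forkhead patterns were found in 3.42% for TGTTTAC, in 5.23% for TGTTTGT and in 3.89% for TGTTTGC. The GATA pattern was found in 10.4% and CAAAGTCCA in 0.383%. The HNF4 pattern was found in no window of the 8 genes that had one. A match of letters is a description of the window and was not tested for binding.

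SFTA3, the surfactant associated gene that RefSeq lists beside NKX2-1 with a start in common, tracked NKX2-1 across the arrays. Its probe was not well above background on any A549 array and was on every H1975 array. With PBS it was at least 62.5-fold higher in H1975 at 6 h and at least 92.9-fold higher at 24 h (limma adjusted p = 3.36e-17 and 1.3e-17). Over the 12 H1975 arrays, the log2 signals of SFTA3 and NKX2-1 correlated with an r of 0.98, the highest among probes of other genes, followed by GSR, encoding glutathione reductase, with an r of 0.98. The arrays share dates and groups, so these correlations are descriptions.

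FOXA2 also had a neighbor among the probes most like it. LINC00261, a long noncoding RNA that RefSeq lists next to FOXA2, correlated with FOXA2 over the 12 A549 arrays with an r of 0.90, second to THAP8 with 0.92. LINC00261 was well above background on all 12 A549 arrays and on 2 of 12 H1975 arrays. It was lower in H1975 with PBS, by a measured log2 difference that signals at background set in part, of -4.96 at 6 h (SE 0.40, limma adjusted p = 3.05e-09) and -3.97 at 24 h (SE 0.40, adjusted p = 7.02e-08), the direction of FOXA2 itself. In H1975 the probes most like FOXA2 were those of B3GNTL1 (r of 0.96) and DPM3 (r of 0.95). GATA6 was most like CEP170 and EMR2 in H1975 (r of 0.97 for both) and like COMMD3 (0.97) and C16orf13 (0.95) in A549. FOXA1 was most like PMS2P3 and MAP7 in H1975 (0.99 for both) and like C1GALT1 in A549, by a pair of its probes (0.95 for both). HNF4A in A549 was most like ABCA2 and GSTM2 (0.95 for both). NAPSA was most like TRIM66 and DQX1 in A549 (0.96 for both) and PCTP and FAXC in H1975 (0.97 for both).

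Pirfenidone left these genes without a call. In A549, 0 of the 10 probes were called after 6 h, where 0.176% of all probes were, and 0 after 24 h, where 0.0126% were. In H1975 it was 0 after 6 h against 0.491% of all probes, and 0 after 24 h against 1.89%. At an unadjusted limma p of 0.05 or less, A549 had 1 of the 10 probes after 6 h, where 6.01% of all probes passed, and 0 after 24 h, where 0.953% did. H1975 had 0 after 6 h, where 11% of all probes passed, and 2 after 24 h, where 22.0% did. The median drug difference of the 10 probes in A549 was 0.06 after 6 h and -0.05 after 24 h, beside -0.01 and -0.02 over all probes. In H1975 it was 0.16 and 0.32, beside 0.05 and 0.02.

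**Figure D3:**
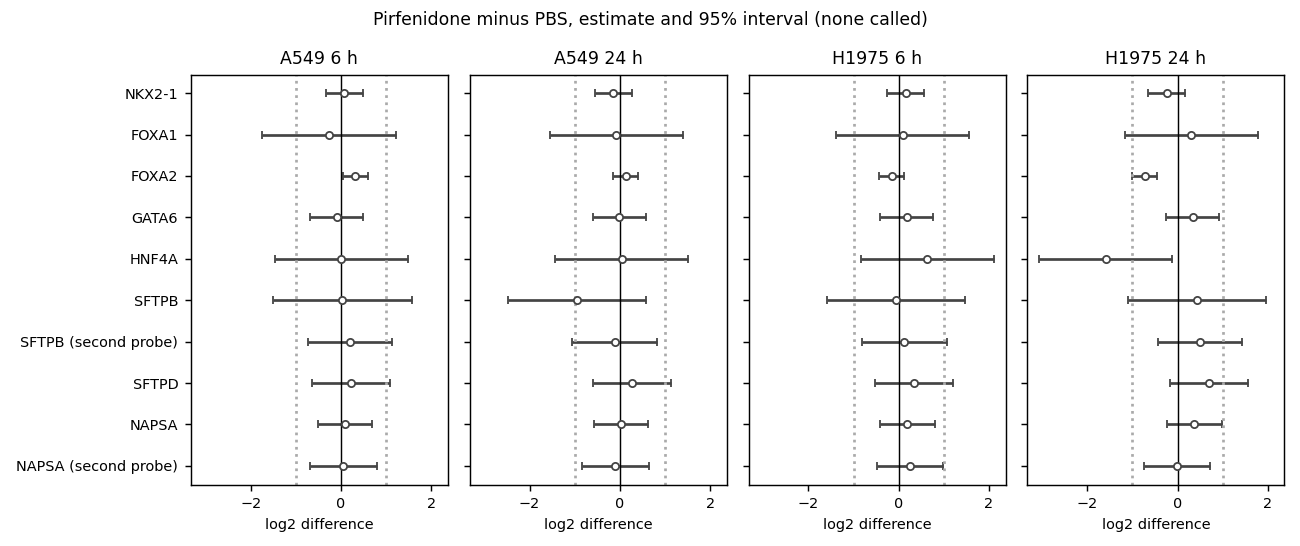
Log2 difference, Pirfenidone minus PBS, of the 10 probes tested, in each line and at each time. Points are limma estimates, bars are 95% intervals and dotted lines mark a 2-fold difference. All points are open because none was called. In A549, NKX2-1 and SFTPB are signals at background, apart from 1 array for the main SFTPB probe. FOXA2 in H1975 at 24 h lies at -0.73 with an interval that excludes 0.

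FOXA2 in H1975 at 24 h came closest to a call. It read -0.15, -0.18 and -0.22 with PBS and -0.67, -0.86 and -1.21 with Pirfenidone. The 3 treated arrays lay below the 3 PBS arrays, as they did for 15.6% of all probes tested, and the log2 difference was -0.73 (95% interval -1.001 to -0.46, SE 0.13, a 1.66-fold difference, limma adjusted p = 0.00444). It passed the p limit but not the 2-fold limit. Without a fold limit 6.26% of all probes passed in that comparison, 3.35% in the lower direction. Within the dates the differences were -0.99 in date group 1, -0.51 in group 3 and -0.68 in group 4. Fitted on only the 6 arrays compared, the adjusted p was 0.0692, in a range from 5.18e-04 to 0.562 over the 16 alternatives.

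The PBS level itself was not the same at both times. FOXA2 in H1975 with PBS stood 0.46 higher at 24 h than at 6 h (SE 0.13, limma adjusted p = 0.119), and its treated values at 24 h overlapped with the PBS values at 6 h. At 6 h Pirfenidone and PBS differed by -0.16 (95% interval -0.43 to 0.12). In A549 FOXA2 lay higher with Pirfenidone by 0.32 at 6 h (95% interval 0.04 to 0.59, limma adjusted p = 0.662), where the 3 treated arrays all lay above the PBS arrays, as for 7.03% of all probes. At 24 h the A549 difference was 0.12 (-0.15 to 0.40). The difference between the lines in the drug change at 24 h was -0.85 (SE 0.18, limma adjusted p = 0.0647, from 0.00624 to 1.0 over the alternatives), below the 2-fold limit under each of them. Among all probes 0.0336% were called for the drug change differing between the lines at 6 h and 0.193% at 24 h, and of the 10 probes 0 at either time, with 1 each, FOXA2, at an unadjusted p of 0.05 or less, which 2.63% and 12.2% of all probes passed.

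HNF4A in H1975 at 24 h had the largest drug estimate, and it came from 1 array. The PBS samples read -8.94, -9.27 and -5.44 and the treated ones -9.39, -9.54 and -9.50, of which the -5.44 array alone was well above background. The log2 difference was -1.59 (95% interval -3.07 to -0.12, limma adjusted p = 0.189). Without that PBS array it was -0.37. With the slide as a random block HNF4A was called, at -1.93 (adjusted p = 0.0461, from 0.0461 to 1.0 over the alternatives). HNF4A was otherwise at background in H1975 with either treatment, so no drug change could be read there.

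For the other factors the intervals bound the drug difference more closely. NKX2-1 in H1975 with PBS at 24 h read 0.42, 0.51 and 1.18 and with Pirfenidone 0.35, 0.25 and 0.80, which overlap. The difference was -0.24 (95% interval -0.65 to 0.17), and 0.15 at 6 h (-0.26 to 0.56). GATA6 differed by 0.34 in H1975 at 24 h (-0.25 to 0.92), and by 0.17 at 6 h. Within the dates all 3 pairs were higher with Pirfenidone, by 0.38, 0.34 and 0.30 in groups 1, 3 and 4 at 24 h and by 0.16, 0.12 and 0.25 at 6 h. NAPSA by its main probe and SFTPD were also higher in all 3 pairs at both times. The share of all probes that were so was not counted. At 24 h the limma adjusted p of GATA6 was 0.54. It was 0.0368 with the date within each line as a term, a fit added after the data were seen. Over the alternatives it ranged up to 1.0, and the difference stayed below 2-fold. In A549 it differed by -0.01 at 24 h and -0.10 at 6 h. The intervals for NKX2-1 in H1975 and for GATA6 in both lines lie within 2-fold in each direction.

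FOXA1 was less well bounded, and its H1975 values differed by date group. Its drug difference in H1975 at 24 h was 0.30, with a 95% interval from -1.17 to 1.78. The fit behind that interval had no date term, so the interval carries the spread between dates. Within the dates the drug difference was 0.59, 0.29 and 0.02 in groups 1, 3 and 4.

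The surfactant genes gave no call for the drug, and in H1975 at 24 h the intervals of SFTPD and SFTPB reached beyond 2-fold. SFTPD in H1975 at 24 h read -7.41, -6.71 and -6.63 with PBS and -6.39, -6.69 and -5.60 with Pirfenidone, of which 2 and 3 were well above background. The difference was 0.69 (95% interval -0.17 to 1.55, limma adjusted p = 0.35). At 6 h all 3 treated H1975 arrays lay above the 3 PBS arrays for SFTPD (10.6% of all probes did), but 1 treated and 0 PBS arrays were well above background. SFTPB in H1975 at 24 h differed by 0.42 by its main probe and 0.49 by the second (limma adjusted p = 0.82 and 0.586), with 2 PBS arrays and 3 treated arrays well above background. That treated group is the only one through which the SFTPB probes entered the tests. NAPSA gave 0.37 and -0.01 by its 2 probes, both with intervals within 2-fold. In A549 at 24 h SFTPD differed by 0.27 (95% interval -0.59 to 1.13). SFTPB differed there by -0.95 by its main probe (-2.48 to 0.58). Both A549 values turned on the third PBS sample at 24 h, without which they were 0.98 and -0.09.

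Between 6 h and 24 h with PBS, 0 of the 10 probes were called in A549 (0.109% of all probes) and 0 in H1975 (0.315%), with 0 and 2 at an unadjusted limma p of 0.05 or less, which 8.49% and 10.6% of all probes passed. The 2 were FOXA2, above, and NKX2-1. NKX2-1 in H1975 with PBS read 0.31, -0.22 and -0.20 at 6 h and 0.42, 0.51 and 1.18 at 24 h. It stood 0.74 higher at 24 h (95% interval 0.33 to 1.15, SE 0.20, limma adjusted p = 0.098, from 0.0016 to 1.0 over the alternatives). SFTA3 stood 0.72 higher (SE 0.20, adjusted p = 0.121). Without the 4 H1975 arrays of date group 1, the NKX2-1 difference was 0.67 (adjusted p = 0.0486), also below 2-fold.

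The H1975 arrays of date group 1 stood apart for several of these genes. The 4 arrays are 1 of each H1975 group. FOXA1 read from -4.60 to -3.99 on them and from -6.52 to -6.18 on the other 8, a log2 difference of 2.11 or 4.30-fold, with no array between. GATA6 read from -0.54 to -0.07 on these 4 and from 0.26 to 0.85 on the others. NAPSA lay from -2.99 to -2.38 against -3.63 to -3.05 by its main probe, and its second probe also did not overlap. Of the 10 probes tested, 3 lay higher on all 4 arrays than on the other 8, where 8.41% of all probes did, and 1 lay lower, where 7.97% did.

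SFTPB leaned the same way as GATA6, 1.41 lower on these 4 arrays by its main probe and 1.17 lower by the second, but overlapped with the others. FOXA2 differed by -0.06 and NKX2-1 by 0.48, both with overlap. Each H1975 group holds 1 of these arrays, so the drug comparisons are balanced for them. No test was made of this split. Over all probes, 389 (1.64%) lay higher and 537 (2.26%) lower on these 4 arrays without overlap and by at least 1 log2 unit in the mean. The A549 mean lay at least 1 log2 unit above that of the other 8 H1975 arrays in 28.8% of the 389 and in 23.3% of the 537, against 14.9% of all probes. In A549, FOXA1 by its main probe also lay highest on the arrays of date group 1, from -0.46 to 0.08. Its highest A549 values were -0.49 in group 2 and -0.78 in group 3. The part of the date in the level of FOXA1 was not tested in either line.

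**Figure D4:**
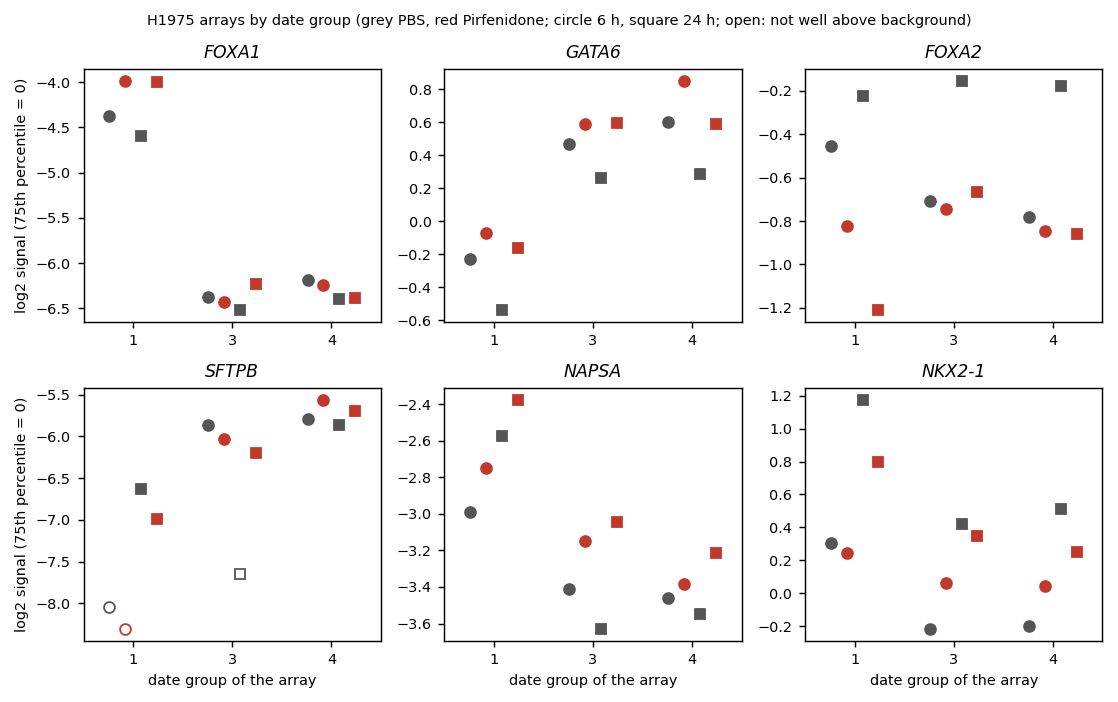
Log2 signal of 6 genes on the 12 H1975 arrays by date group (1, 3 and 4), with 0 at the 75th percentile of the array. Grey points are PBS and red Pirfenidone, circles 6 h and squares 24 h, open points were not well above background, and vertical scales differ. FOXA1 and NAPSA lie higher and GATA6 lower on all 4 arrays of group 1. At 24 h Pirfenidone lies below PBS in each group for FOXA2 and NKX2-1, and above PBS in each group for FOXA1, GATA6 and NAPSA.

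Related genes were read beside the 9. In 10 lists of related genes and of markers of other cells, a gene stood by its brightest probe. Of 15 other alveolar type 2 genes 12 were tested, and with PBS 5 were higher and 1 lower in H1975 at both 6 h and 24 h, with medians of 0.45 and 0.43. Of all probes, 32.4% and 32.9% were called in these comparisons, which holds for the other lists too. Besides SFTA3, DMBT1, a mucosal scavenger receptor, was at least 2.97-fold higher in H1975 at 6 h. LAMP3, the lamellar body membrane protein, was 5.11-fold higher at 6 h (limma adjusted p = 0.00164), and MUC1, a membrane mucin, 5.66-fold higher at 24 h (adjusted p = 8.03e-05). CEBPA, a factor of alveolar and liver cells, was 8.67-fold lower in H1975 at 6 h (adjusted p = 2.11e-12).

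Genes of liver and gut epithelium were mostly lower in H1975. Of 21 genes 19 were tested, with 14 lower and 1 higher in H1975 at 6 h and 15 lower and 2 higher at 24 h. The median was -4.93 at 6 h, or -3.68 with 9 genes at their bound, and -4.58 at 24 h, or -3.10 with 10 at their bound. The fibrinogen genes FGG and FGB were at least 324-fold and at least 102-fold lower in H1975 at 6 h, and TM4SF4, a membrane protein of liver and intestine, at least 513-fold. SERPINA1, the antitrypsin gene, went the other way, 30.5-fold higher in H1975 at 6 h (limma adjusted p = 5.62e-11).

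More of the other endoderm factors were lower in H1975 than higher. Of 21 listed 19 were tested, with 10 lower and 4 higher in H1975 at 6 h and 10 lower and 3 higher at 24 h, and medians of -1.76 and -1.49. CDX2, the intestinal homeobox factor, was at least 17.0-fold lower at 6 h. GRHL2, which sustains epithelial junctions, was at least 16.5-fold higher in H1975 at 6 h, and GATA2 5.15-fold higher (limma adjusted p = 5.23e-08).

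**Figure D5:**
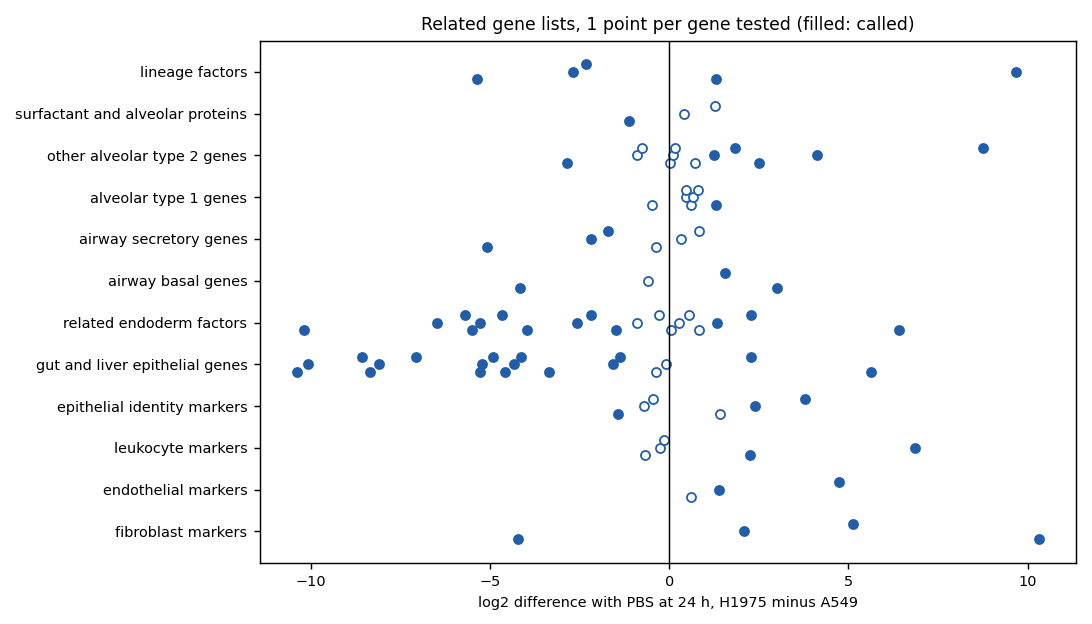
Log2 difference with PBS at 24 h, H1975 minus A549, for each gene tested of the 2 groups of genes described and of 10 related lists, 1 point per gene by its brightest probe. Filled points were called, and the vertical offset within a row only separates points. Most gut and liver genes lie far to the left (15 of 19 called lower), and the alveolar type 2 genes lie on both sides (5 called higher and 1 lower).

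Airway genes were mixed. Of 8 airway secretory genes 6 were tested, with 3 lower in H1975 at both times and 1 higher at 6 h and 0 at 24 h, and medians of -1.16 and -1.04, the latter -0.61 with 2 genes at their bound. The mucin gene MUC5B was at least 8.56-fold lower at 6 h, while SCGB3A2, a secretoglobin, was 2.20-fold higher (limma adjusted p = 2.497e-04). Of 6 airway basal genes 4 were tested, with 1 higher and 2 lower at 6 h and 2 higher and 1 lower at 24 h. Their median at 6 h was -0.90, and 0.13 with 1 gene at its bound. SOX2 was 27.0-fold lower in H1975 at 6 h and KRT14 10.5-fold higher. Of 8 alveolar type 1 genes 7 were tested, with 0 called at 6 h and 1, CAV1, higher at 24 h.

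Markers of leukocytes, endothelium and fibroblasts were checked because a line should lack them. Of 6 leukocyte genes 5 were tested, and CD68, a macrophage gene, was among those higher in H1975. Of 5 endothelial genes 3 were tested and 2 were higher, PECAM1 and VWF. Of 6 fibroblast genes 4 were tested, and COL1A2, PDGFRB and COL1A1 were higher and LUM lower. PECAM1, VWF, COL1A2 and PDGFRB were well above background on all 6 H1975 PBS arrays and on 0 of 6 A549 PBS arrays. LUM was the reverse, on all 6 A549 PBS arrays and on 0 of 6 in H1975. CD68 and COL1A1 were well above background on all 6 PBS arrays of each line. The part of these markers in the differences between the lines was not tested.

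Of the 85 genes tested in these lists, 1 was called for the drug in H1975 at 6 h (1.18%, beside 0.491% of all probes) and 3 in H1975 at 24 h (3.53%, beside 1.89%). RTKN2, an alveolar type 1 gene, read -5.27, -5.22 and -3.73 with PBS at 24 h and -7.03, -7.10 and -5.96 with Pirfenidone, and fell by 1.96 on the log2 scale (SE 0.46, limma adjusted p = 0.019). KRT14, a basal keratin, rose by 1.29 at 24 h (SE 0.38, adjusted p = 0.0479). AGR2, an endoplasmic reticulum protein of mucous epithelium, read -3.51, -3.40 and -4.26 with PBS at 24 h and -1.31, -1.32 and -1.65 with Pirfenidone, and rose by 2.30 (SE 0.54, adjusted p = 0.0184). NGFR, a basal cell receptor, differed by 1.94 at 6 h (adjusted p = 0.00158), with 0 PBS and 1 treated array well above background.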

How the data were processed

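The authors deposited 1 scanner file per array, made with Agilent Feature Extraction, which holds spot intensities corrected for background but not scaled between arrays, with flags for outliers and for spots well above background. They also deposited a table of log2 values of the same arrays, each probe centered on its median over the 24 arrays (largest absolute median 5.0e-04). How its arrays were scaled stays unknown. Its differences between arrays correlated with those of the scanner intensities with an r of 0.9996.

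From the scanner files the log2 of the processed signal was taken minus the array's 75th percentile, taken over 43118 spots with controls left out. Spots flagged as outliers were removed, and the rest averaged per probe. A probe counted as well above background if at least 0.5 of its spots did, and was tested if it did so on all 3 arrays of a group. A single limma model (version 3.58.1, R 4.3.3) held all 8 groups, had no term for date and left 16 residual degrees of freedom. Its steps were tested on simulated data. Samples were grouped by their labels. Drug changes are Pirfenidone minus PBS, line differences H1975 minus A549 and time differences 24 h minus 6 h. A fold against a line with no array well above background is a bound, the bright mean against the higher of the dim signal and the lowest signal well above background on each dim array. Such a bound holds for this processing only, and for NKX2-1, HNF4A, SFTPB and SFTPD an alternative gave a smaller difference.

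The genes, the 10 related lists and the tests were chosen with earlier results of these data known. Every gene of the 9 is named, from the lists every gene called for the drug and among those called between the lines the largest differences in each direction, and, for those of the 9 well above background on all 12 arrays of a line, the 2 probes of other genes with the highest correlation there. Of the 12 probes, 11 matched a RefSeq transcript of the same symbol by accession in the table of GRCh38.p14. Values of 2 genes of the related lists are not reported here. The number of arrays limits the precision. Alternatives were normexp background correction (offset 50), normalization by quantiles, the deposited log2 values, other filters, the replicate number, slide or date in the fit, only the arrays compared, Holm adjustment, no fold limit, the mean of a gene's probes, a plain t-test paired by date and each array left out. After adjustment that t-test, on 3 pairs, called 0 of all probes in every drug comparison, so it says nothing about these genes. The date within each line as a term and the fit without the 4 H1975 arrays of date group 1 were added after the data were seen.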

Additional observations from a re-analysis of the deposited data

How the results depend on the processing

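The count of probes called for the drug in H1975 at 24 h was 1 in place of 0 with the slide as a random block (HNF4A) and 1 without a fold limit (FOXA2). For the line difference with PBS, the 8 calls at 6 h became 4 with normexp background correction, 3 when probes had to be well above background on each of the 24 arrays and 3 with Holm adjustment, and the 7 calls at 24 h became 4, 3 and 3. By the main probes, normexp ended the calls of HNF4A and SFTPD at both times and of SFTPB at 6 h, and Holm adjustment ended these and those of GATA6. Fitting only the arrays compared ended those of HNF4A and SFTPD at 24 h. The stricter filter left fewer probes to test, Holm adjustment is stricter by construction, and the cause of the others was not tested. With 1 array left out, the counts ran from 5 to 7 for the line difference at 24 h and from 8 to 8 at 6 h, and from 0 to 0 for the 4 drug changes, their 2 line differences and both time differences. The 5 came without the first H1975 PBS sample at 24 h, where HNF4A (-1.79, limma adjusted p = 0.0545) and SFTPD (-0.86, adjusted p = 0.117) were no longer called. Without the second, HNF4A was not called (-1.62, adjusted p = 0.0651). Normexp moved the median of all probes for the drug in H1975 at 6 h to 0.29. No other alternative moved a count by more than 1.5 times, and no called value changed sign under the alternatives run.

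Replicate numbers did not pair the samples in H1975 at 6 h. There, Pirfenidone and PBS samples of the same number had deviations from their group means that correlated at -0.48, 0.43 and -0.68. Samples of the same date correlated at 0.82, 0.50 and 0.70. In A549 at both times and in H1975 at 24 h, number and date paired the same samples. Their r was 0.70, 0.58 and 0.64 in A549 at 6 h and 0.39, 0.08 and -0.10 at 24 h. In H1975 at 24 h it was 0.46, 0.53 and 0.72. With the replicate number as a block, the counts of called probes were the same: 0 for each drug change, 8 and 7 for the line difference at 6 h and 24 h. Dim probes limit these results most, since SFTPB, SFTPD and HNF4A lie near background.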
